A study of Mus musculus with 32 samples.

Results

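The contacts described here join 11 promoter baits to fragments of the same chromosome that lie 1 Mb or more away. They were chosen by distance alone: every pair listed in either of the deposited tables whose signed distance was at least 1 Mb and whose bait was not one of the 3 at Ciita. This gave 2247 of the 30435 fragment pairs of the series, and of the 22771 pairs of these 11 baits. Of the other pairs of the same baits, 1196 lay within 1 Mb and 19328 joined other chromosomes. The distances ran from 1.006 to 165.4 Mb.

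The data come from Capture-C, in which crosslinked chromatin is cut with the restriction enzyme DpnII, fragments that lie close together are ligated, and the ligation products of chosen bait fragments are enriched and read. The cells were small-intestinal organoids, epithelial cultures grown from intestinal stem cells, of aged C57BL/6JRj mice. They were cultured to passages P2 to P5 and given IFNγ (500 pg/ml for 3 h, diluted in growth medium) or growth medium alone for the same time. The 32 sequencing samples are 8 libraries run on 4 lanes each, 4 libraries per condition, from 2 mice (O76 and O77) with 2 passages each. All libraries were aged and of the same strain, so the design holds no comparison of ages or genotypes. No measured marker checks the tissue, because Capture-C reads no expression.

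It could not be settled which condition each table holds, because the labels link the control-named file to IFNγ samples, and the IFNγ-named file to control samples. The tables are therefore called control-named and IFNγ-named, every signed difference is IFNγ-named minus control-named, and each sign turns under the opposite subtraction. The count columns name neither mouse nor passage, so the 4 libraries of a table were treated as unpaired replicates. They come from 2 mice, and the p-values measure the spread between these libraries.

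In a crosslinked nucleus, the chance that a promoter is ligated to another fragment falls with the distance along the chromosome, and this decay continues over many megabases. Fragments of the same chromosome are usually caught more often than those of other chromosomes, because each chromosome occupies its own territory. Active, gene-rich chromatin tends to meet other gene-rich chromatin, and gene-poor chromatin other gene-poor chromatin, over long distances. The baited genes are known mainly from pluripotent stem cells. Nanog, Sox2, Esrrb, Klf2, Klf4, Sall4 and Tfcp2l1 encode transcription factors of that network, Dppa5a an RNA-binding protein, and Phc1 a subunit of a polycomb complex. Lifr encodes a cytokine receptor chain, and Stat3 the transcription factor activated by that receptor. Klf4 is also a regulator of differentiation in the gut epithelium.

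The first 100 bases of 6 distant other ends show what was joined to the baits. Each is the distant fragment with the highest median over the 8 libraries for its bait, in reads scaled to library depth. In the first 3 no library exceeded the rest by as much as in the last 3, where a single library was far above the others. The sequences are from the RefSeq copy of GRCm38 (mm10), plus strand, 5′ to 3′, and the capitals mark the DpnII site GATC that starts the fragment.
Klf2 to Cmtm4, chr8:104392274-104392373: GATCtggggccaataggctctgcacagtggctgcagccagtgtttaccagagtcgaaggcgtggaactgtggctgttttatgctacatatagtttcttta
Lifr to Slc45a4, chr15:73625505-73625604: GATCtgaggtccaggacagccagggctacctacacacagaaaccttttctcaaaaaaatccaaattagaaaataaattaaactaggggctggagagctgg
Stat3 to near Krt39, chr11:99526823-99526922: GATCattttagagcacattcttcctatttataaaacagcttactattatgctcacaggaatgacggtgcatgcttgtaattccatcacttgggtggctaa
Esrrb to Eml1, chr12:108373145-108373244: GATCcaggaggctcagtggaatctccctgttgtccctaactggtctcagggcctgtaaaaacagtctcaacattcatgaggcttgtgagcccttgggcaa
Sall4 to Gpat2, chr2:127428293-127428392: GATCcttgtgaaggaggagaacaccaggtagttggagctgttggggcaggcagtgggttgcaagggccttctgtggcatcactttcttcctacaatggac
Phc1 to near Cav1, chr6:17303606-17303705: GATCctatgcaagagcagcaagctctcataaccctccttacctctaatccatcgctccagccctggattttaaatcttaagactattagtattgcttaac

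Depth set a limit on all that follows. The libraries held 23037 to 37290 reads over all baits, of which 4976 to 7802 belonged to the distant pairs of the 11 baits. The control-named table listed 1825 of the 2247 distant pairs with 27400 reads. The IFNγ-named table listed 1575 pairs with 22849 reads. The tables shared 1153 pairs, 63.2% of the control-named and 73.2% of the IFNγ-named list. The median pair had 5 reads over all libraries, the highest 221, and 1026 pairs (45.7%) had 1 read. None of the distant pairs joined 2 baits, and none could: no 2 of the 11 baits lie 1 Mb or more apart on the same chromosome. No molecular identifiers were counted, so reads may repeat a molecule and intervals from counts alone would be too narrow.

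Distant pairs fell into a pair of kinds by how many libraries held them. Of the 2247 pairs, 1072 (47.7%) had reads in 1 library and 946 (42.1%) in all 8, with 19 to 78 pairs at each number between. The pairs in 8 libraries carried 91.5% of the distant reads and those in 1 library 2.51%. Within 1 Mb of the same baits, 901 of 1196 pairs (75.3%) were in all 8 libraries. On other chromosomes 3.75% were in all 8 and 92.4% in 1 library.

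**Figure D1:**
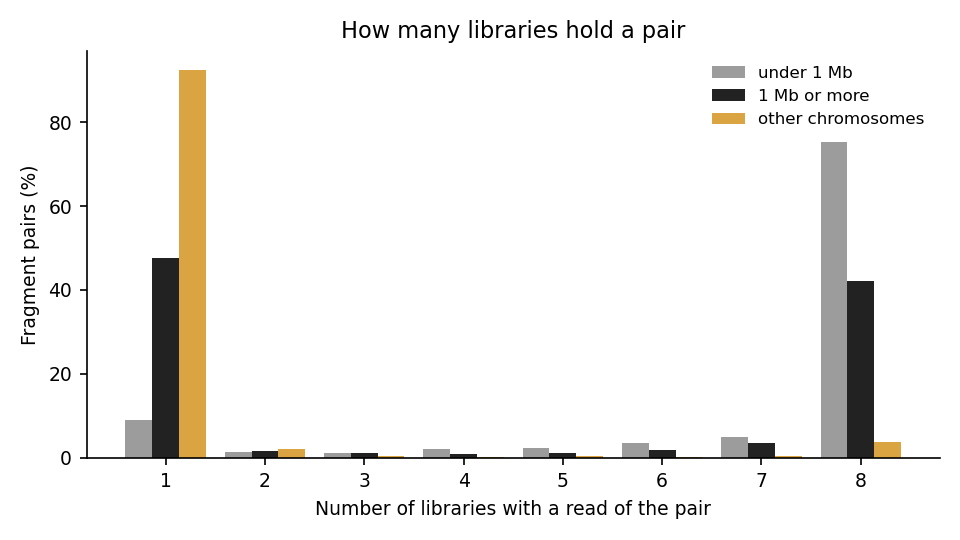
Percent of fragment pairs of the 11 baits (vertical axis) by the number of libraries that hold a read of the pair (horizontal axis), for pairs under 1 Mb, pairs 1 Mb or more away and pairs with other chromosomes. Distant pairs pile up at 1 library (47.7%) and at 8 libraries (42.1%), between the patterns of near pairs and of other chromosomes.

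A read in all 8 libraries was not an even signal in all 8. In the 946 such pairs the library with the most reads held a median of 46.2% of them, with quartiles of 27.3% and 62.0% and a highest value of 92.1%. Of the 491 of these pairs with 40 or more reads, 230 had over 50% of their reads in 1 library. A total of 219 pairs had 3 or more reads in every library, and 3 pairs had 10 or more in every library. Over all distant pairs with 10 or more reads, 468 of 1068 (43.8%) had over 50% of their reads in 1 library, and they carried 43.3% of the distant reads. The cause of this unevenness was not tested. The measures compared between the tables over all 11 baits, other than the exon share and the distance classes, are given below with and without those 468 pairs. Values by bait include them.

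Single reads and recurrent pairs were spread differently along the chromosome. Pairs in all 8 libraries fell from 3.98 per Mb of available sequence at 1 to 2 Mb to 0.855 at 5 to 10 Mb, 0.589 at 20 to 50 Mb and 0.171 at 100 Mb or more. On other chromosomes the level was 0.0273 per Mb. Pairs with 1 read were at 1.51 per Mb at 1 to 2 Mb and between 0.569 and 0.855 per Mb in every class beyond, next to 0.646 per Mb on other chromosomes. Beyond 2 Mb the density of single reads thus showed no steady fall with distance, whereas recurrent pairs thinned out toward the level of other chromosomes.

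**Figure D2:**
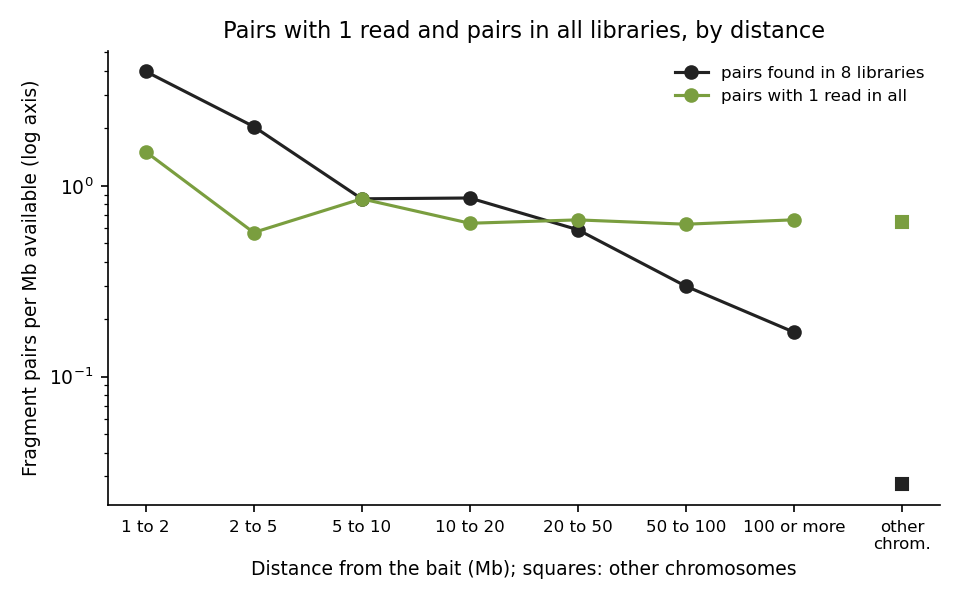
Fragment pairs per Mb of available sequence (log axis) by distance from the bait, for pairs found in all 8 libraries (black) and pairs with 1 read (green), with squares for other chromosomes. The black line falls from 3.98 to 0.171 per Mb, and the green line stays between 0.569 and 0.855 per Mb beyond 2 Mb.

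The fragments of these kinds also differed in what the selection by reads did not use. Soft-masked repeats made up a mean of 26.9% of the bases of fragments in 8 libraries, 54.0% of those with 1 read, and 36.2% of all available fragments. Over 90% of the length was masked in 3.17% of the fragments in 8 libraries and in 25.05% of those with 1 read. Protein-coding genes were overlapped by 46.6% of the fragments in 8 libraries, 37.4% of those with 1 read and 40.5% of available ones. A TSS of a protein-coding gene lay within 1 kb of 7.61%, 3.02% and 4.43%. Mean GC content differed little (43.5%, 41.4% and 42.03%), and both kinds were longer than the available fragments, with medians of 496.5, 508 and 373.8 bp. These are descriptions without a test. The fragments of a bait share its libraries, and how mappable the repeats were was not tested.

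Few recurrent distant fragments had a close neighbour. Of the 946 in 8 libraries, 32 (3.38%) had another of the same bait within 10 kb, against 697 of 901 (77.4%) of the recurrent fragments under 1 Mb. Within 50 kb the numbers were 136 (14.4%) and 847 (94.01%). The recurrent fragments under 1 Mb are packed into a much shorter stretch, so this difference follows from density alone. How many neighbours random placement of the distant fragments would give was not computed, so no isolation is read from these shares. Nanog and Phc1 lie near each other on chromosome 6, so their distant fragments come from nearly the same stretch. They shared 5 pairs' other ends, 2.31% of the 216 of Nanog and 1.93% of the 259 of Phc1. None of the 86 recurrent fragments of Nanog was among the 117 of Phc1. How many shared fragments random draws from the available ones would give was not computed. The low overlap is therefore no result about these baits.

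Read density fell from the nearest to the farthest class in every library, though not at every step. It stayed above the level of other chromosomes in every class. In the control-named table it was 27.4 ± 5.56 reads per Mb at 1 to 2 Mb and 13.2 ± 1.45 at 2 to 5 Mb (SD, n = 4). In the other table it was 23.7 ± 3.30 and 12.6 ± 0.507. The fall then paused: the 5 to 10 Mb class held 6.37 ± 0.385 and 4.95 ± 0.819 reads per Mb, and the 10 to 20 Mb class 7.17 ± 1.68 and 5.42 ± 1.22. At 20 to 50 Mb the densities were 4.14 ± 0.514 and 3.33 ± 0.434, at 50 to 100 Mb 2.10 ± 0.647 and 1.98 ± 0.365, and beyond 100 Mb 1.36 ± 0.527 and 0.961 ± 0.280. These values are not scaled to depth, which was higher in the control-named table, and at 5 to 10 Mb every control-named library lay above every IFNγ-named one. Other chromosomes held 0.2955 and 0.2366 reads per Mb. The ratio to that level ran from 92.7 and 101.4 at 1 to 2 Mb down to 4.50 and 4.10 beyond 100 Mb.

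**Figure D3:**
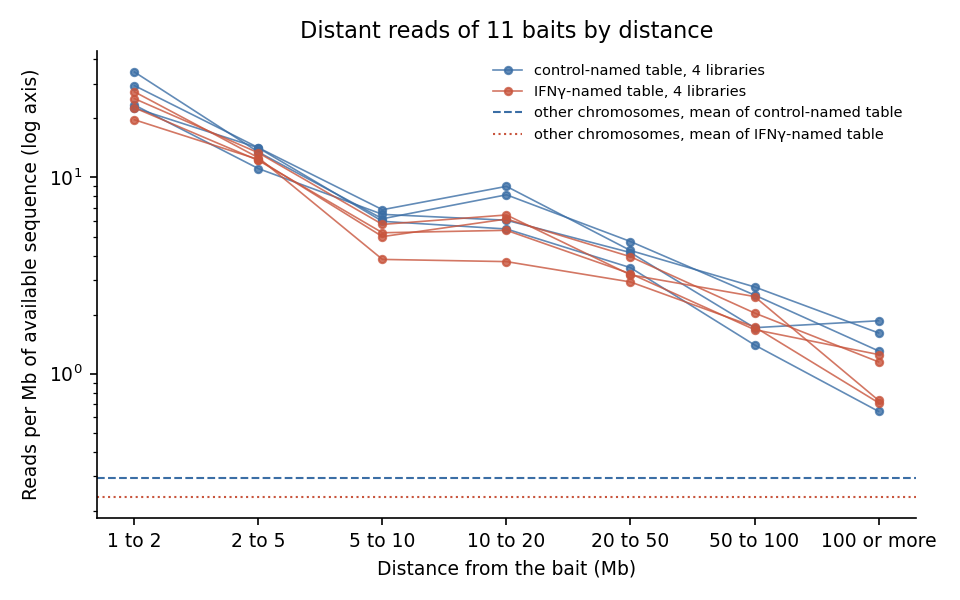
Reads per Mb of available sequence (log axis) by distance from the bait for each of the 8 libraries, with dashed and dotted lines at the mean level of other chromosomes in each table. All libraries fall from 19.7 to 34.4 reads per Mb at 1 to 2 Mb to 0.643 to 1.86 beyond 100 Mb, and the tables overlap in every class except 5 to 10 Mb.

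The pause at 10 to 20 Mb was not shared by all baits. Esrrb rose from 9.18 ± 4.23 reads per Mb at 5 to 10 Mb to 22.5 ± 4.81 at 10 to 20 Mb for the control-named libraries, and from 7.73 ± 2.38 to 13.8 ± 3.80 for the IFNγ-named ones (SD, n = 4). Stat3 went from 0.925 ± 0.854 to 4.01 ± 1.32 and from 1.20 ± 0.673 to 3.53 ± 2.31. Sox2 moved the other way, from 7.88 ± 3.43 to 2.01 ± 1.17 and from 5.30 ± 1.79 to 1.05 ± 0.299. Esrrb supplied 2899 of the 10206 reads of the 10 to 20 Mb class. Differences between baits also depend on how deeply each was captured, so only the change within a bait is read here, and it was not tested.

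The question put to the tables was whether the amount, the decay or the target sequence of distant contacts differed between the cultures. The distant share of the 11 baits' reads was 32.2, 30.4, 30.3 and 31.7% in the control-named libraries and 31.7, 29.8, 32.5 and 33.2% in the IFNγ-named libraries. The groups overlapped, with means of 31.1% ± 0.920 and 31.8% ± 1.43 (SD, n = 4 each). By two-sided exact permutation the difference of 0.653 percentage points gave p = 0.486, or 0.607 after Benjamini-Hochberg adjustment for 5 measures. It ran from 0.206 to 1.31 points with single libraries left out, without IFNγ-named library 4 and library 2, and was 2.43 points with fragments detected in place of reads (21.1% and 23.5%, exact permutation p = 0.0571). Without the 468 uneven pairs, and with uneven pairs at other distances also left out, the shares were 26.6% ± 1.34 and 27.8% ± 1.49 (exact permutation p = 0.343).

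The slope of the decay, log10 reads per Mb on log10 distance from 1 to 100 Mb, averaged -0.605 ± 0.0475 and -0.605 ± 0.0573 (control-named first). The libraries overlapped, and the exact permutation p was 1.00. Without uneven pairs the slopes were -0.611 ± 0.0234 and -0.606 ± 0.0348 (exact permutation p = 0.771). Distant reads per Mb were 15.1 ± 1.10 and 15.8 ± 0.423 times those of other chromosomes (exact permutation p = 0.429, adjusted p 0.607). Without uneven pairs the ratios were 11.5 ± 1.11 and 12.3 ± 0.793 (exact permutation p = 0.371). When fragments detected were counted in place of reads, this ratio was 6.02 and 7.36. The exact permutation p was 0.0286, unadjusted, which no 4-against-4 comparison can undercut. Over all baits, 6576 to 8094 pairs had reads in control-named libraries and 6334 to 7079 in IFNγ-named ones. This ratio was not adjusted for that difference. The share of distant reads in each of the 7 distance classes differed with exact permutation p-values adjusted over the classes of 0.650 or more.

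By bait, the distant share was highest for Tfcp2l1, Phc1 and Sox2 and lowest for Stat3. Of the Tfcp2l1 reads 41.9% ± 4.41 (control-named) and 45.8% ± 6.89 (IFNγ-named) were distant. The values were, in the same order, Phc1 42.3% ± 1.73 and 41.9% ± 3.28, and Sox2 39.3% ± 3.99 and 37.3% ± 5.54. Sall4 had 36.4% ± 4.01 and 35.8% ± 2.38, Esrrb 33.3% ± 2.23 and 29.1% ± 4.34, and Nanog 32.98% ± 5.05 and 36.3% ± 1.97. Klf4, Lifr, Klf2 and Dppa5a followed with means between 19.7% and 29.6% over the tables. Stat3 was at 13.7% ± 3.24 and 17.2% ± 7.28, with 9.03% to 26.5% in single IFNγ-named libraries. Tfcp2l1 and Phc1 do not differ beyond their spread, nor do Sall4 and Nanog.

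The slope of the decay within single baits was compared without a test between baits. It averaged -0.919 ± 0.0254 and -0.969 ± 0.158 at Sox2, and -0.893 ± 0.118 and -0.9987 ± 0.172 at Stat3. It averaged -0.345 ± 0.0512 and -0.284 ± 0.102 at Dppa5a, and -0.372 ± 0.136 and -0.4135 ± 0.04803 at Klf2. The median distant read of Sox2 lay 7.34 Mb from the bait, and that of Klf2 32.1 Mb. The chromosome length left on either side of a bait differs between them and was accounted for only as available sequence per class.

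No sum of reads per bait and distance class passed the test. Of 84 sums over all 14 baits, 0 (percent called: 0%) passed an adjusted p of 0.05 in edgeR's quasi-likelihood test, and 3 (3.57%) had an unadjusted p under 0.05. Of the 22 sums of these baits at 1 to 10 Mb and at 10 Mb or more, 0 passed and 0 had an unadjusted p under 0.05, with 0 under either rule in DESeq2. The largest difference was at Nanog, 1 to 10 Mb. The control-named libraries held 162, 229, 161 and 295 reads there and the IFNγ-named 151, 184, 125 and 112. Scaled to library depth these are 7100 ± 3331 and 5411 ± 1063 RPM (reads per 1e+06 reads of the library; SD, n = 4), a log2 difference of -0.37 (SE 0.295, edgeR adjusted p = 0.954). The groups overlapped, and library 4 of the control-named table was the highest. Sall4 at 1 to 10 Mb followed, with 9028 ± 2176 and 11328 ± 1961 RPM and a log2 difference of 0.34 (SE 0.249, edgeR adjusted p = 0.954).

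The other ends lay in genes more often than all available sequence beyond 1 Mb does. That level was not matched for distance from the bait or for mappability. Protein-coding genes were overlapped by the other ends of 41.7% to 48.3% of the distant reads in the control-named libraries and of 46.2% to 52.2% in the IFNγ-named libraries. Of the available DpnII fragments beyond 1 Mb, with baits weighted by reads, 39.6% do so, and 41.1% when fragments are weighted by length. All 8 libraries lay above both values. The means of 45.4% ± 2.89 and 48.9% ± 2.93 (SD, n = 4) differed with an exact permutation p of 0.200 and an adjusted p of 0.607. Without the 468 uneven pairs they were 46.9% ± 3.23 and 48.3% ± 2.35 (exact permutation p = 0.457). The difference was 1.64 points with all annotated genes (53.7% and 55.3%) and 0.290 points with fragments detected in place of reads (46.5% and 46.8%).

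Start sites and exons were over the available level too. Other ends within 1 kb of a protein-coding TSS took 7.56% ± 1.01 and 8.08% ± 0.988 of the distant reads (control-named first), against 4.26% of available fragments and 4.94% by length (exact permutation p = 0.486 between the tables, adjusted p 0.607). Exons took 11.05% ± 1.48 and 12.2% ± 1.93, against 7.10% of fragments and 9.21% by length. For both, all 8 libraries lay above the available level, which again was not matched for distance from the bait. Without the 468 uneven pairs the TSS share was 7.95% ± 0.790 and 6.995% ± 0.590, so the direction between the tables turned (exact permutation p = 0.114). The libraries share most of their recurrent pairs, so 8 libraries above a level are not 8 independent observations.

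Gene density around the other ends was set against that of the available sequence, bait by bait. Around each other end the protein-coding genes in a 1 Mb window were counted and averaged over reads. Stat3, whose own window holds 47 genes, had 26.7 ± 2.09 and 27.1 ± 3.19 genes per Mb (control-named first), against 13.4 around all available fragments of its chromosome. Klf2, with 28 genes in its own window, had 14.5 ± 2.38 and 14.6 ± 1.64, against 8.16. Lifr, with 4, had 5.17 ± 0.493 and 5.07 ± 0.228, against 7.95.

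Gene density changes along a chromosome, so the same comparison was made with available fragments of the same distance classes. For Stat3 these averaged 22.1 and 22.4 genes per Mb. Stat3 then stood at 1.21 times the level, Klf2 at 1.64 times, Klf4 at 1.31 times, Esrrb at 1.24 times and Lifr at 0.759 times (means over 8 libraries). All 8 libraries lay above it for Stat3, Klf2, Klf4 and Esrrb, and 0 of 8 for Lifr. Klf4 has 2 genes in its own window, and its other ends had 10.6 ± 0.654 and 10.95 ± 0.300 genes per Mb (control-named first). All available fragments averaged 8.79, and those at the same distances 7.945 and 8.574. For Nanog the direction turned, from 1.14 times all available fragments to 0.907 times those at the same distances. Nanog has 20 genes in its own window, and 1 of its 8 libraries lay above the matched level. Dppa5a also has 20, with a ratio of 1.10 and 5 of 8 libraries above. Phc1, with 13 genes, had a ratio of 1.12 and 7 of 8 libraries above. Esrrb has 8 genes in its own window. Sox2, with 1 gene, stood at 1.01 times the matched level, and Sall4 (5 genes) and Tfcp2l1 (6 genes) at 1.03 and 1.12 times, with 3 to 6 libraries above. These ratios did not follow the order of the baits' own gene numbers. These comparisons were chosen after seeing the data.

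**Figure D4:**
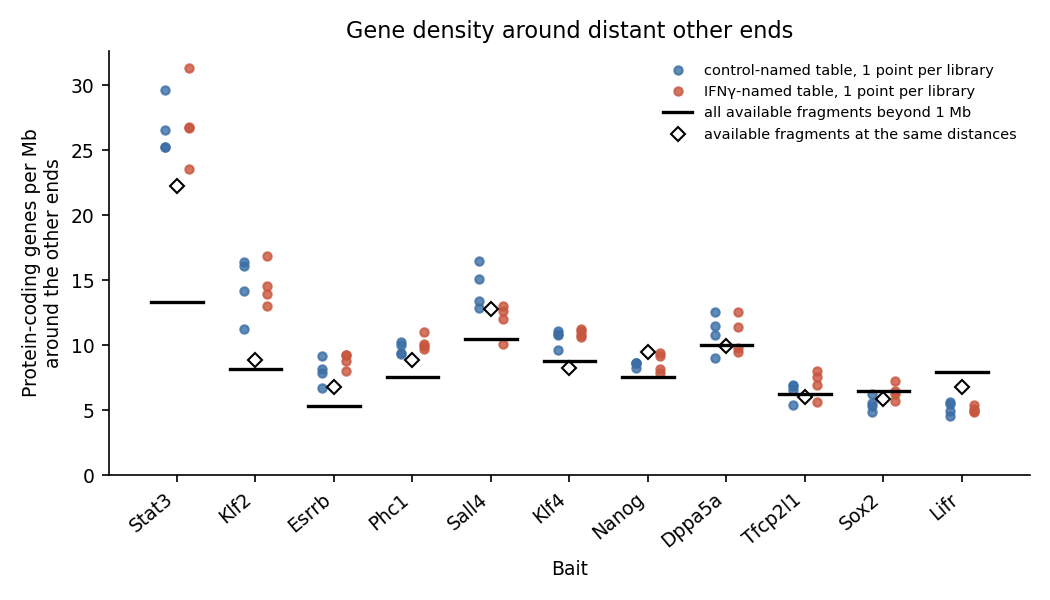
Protein-coding genes per Mb around the distant other ends of each bait, averaged over reads, with 1 point per library, a bar at the value of all available fragments beyond 1 Mb and a diamond at that of available fragments at the same distances. Stat3 and Klf2 lie above both marks in all 8 libraries and Lifr lies below both.

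The strongest distant contact of each bait, by median RPM, differed between baits in how its reads were spread over the libraries. Since these were chosen for their level, the levels are descriptions. The Klf2 bait (chromosome 8, 72317488 to 72319340) met a fragment in an intron of Cmtm4, a membrane protein gene, 32.1 Mb away (104392274 to 104392697). It had 18, 15, 13 and 14 reads in the control-named libraries and 10, 10, 11 and 15 in the IFNγ-named ones. No library stood apart, and the groups overlapped once scaled to depth, at 485.5 ± 74.9 and 438.0 ± 94.2 RPM (log2 difference -0.27, SE 0.465, edgeR adjusted p = 0.705).

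Lifr and Sox2 had contacts with 8 to 20 reads in every library. The Lifr bait (chromosome 15, 7128930 to 7130283) met an intronic fragment within 1 kb of a TSS of Slc45a4, a solute carrier gene, 66.5 Mb away (73625505 to 73626150). It had 12, 10, 10 and 16 reads in the control-named and 8, 11, 16 and 9 in the IFNγ-named libraries (log2 difference -0.05, SE 0.519, edgeR adjusted p = 0.954). The Sox2 bait (chromosome 3, 34648729 to 34650279) met a UTR exon of Gnb4, a G protein beta subunit gene, 2.07 Mb toward lower coordinates (32583559 to 32583901). It had 16, 14, 16 and 16 and then 11, 11, 20 and 13 reads (log2 difference -0.07, SE 0.484, edgeR adjusted p = 0.931). At the Lifr contact library 3 of the IFNγ-named table was above the other 3 of its table (641 RPM against 332 to 356). The sign of both differences turned with other settings.

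Stat3, Tfcp2l1 and Klf4 had weaker or less even leading contacts. The Stat3 bait (chromosome 11, 100938874 to 100939386) met an intergenic fragment 5.49 kb from Krt39, a keratin gene, 1.41 Mb away (99526823 to 99527888), with 13, 8, 7 and 12 and then 10, 7, 10 and 11 reads. Library 2 of the IFNγ-named table was the low one of its table (226 RPM against 401 to 434). The scores of this contact, 4.92 and 5.79, lay on either side of 5, the threshold used here for a call. The Tfcp2l1 bait (chromosome 1, 118628128 to 118629090) met a fragment 20.5 kb from Zfp281, a zinc finger gene, 18.02 Mb away (136650532 to 136650931), with 5, 22, 10 and 3 and then 9, 10, 3 and 10 reads. The Klf4 bait (chromosome 4, 55531324 to 55531996) met a fragment 5.82 kb from Stra6l, 9.69 Mb away (45841959 to 45842849), with 10, 13, 15 and 10 and then 36, 7, 13 and 13 reads. Library 1 of the IFNγ-named table stood above the others at the Klf4 contact. None of the 3 differed between the tables in edgeR (adjusted p 0.453 to 0.957).

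In the other 5 baits, 1 library held far more reads than the rest. The Esrrb bait (chromosome 12, 86419274 to 86422913) met an intron of Eml1, a microtubule-associated protein gene, 21.9 Mb away (108373145 to 108374608). It had 23, 24, 11 and 98 reads in the control-named and 8, 20, 20 and 17 in the IFNγ-named libraries. Library 4 of the control-named table was far above the rest, and the means were 1420 ± 1719 against 605.7 ± 189.0 RPM (log2 difference -1.29, SE 0.759, edgeR adjusted p = 0.310). The Sall4 bait (chromosome 2, 168766420 to 168767218) met a coding exon of Gpat2, an acyltransferase gene, 41.3 Mb toward lower coordinates (127428293 to 127428399). It had 15, 20, 13 and 84 and then 8, 14, 12 and 20 reads (log2 difference -1.32, SE 0.748, edgeR adjusted p = 0.2998). Here too library 4 of the control-named table was the outlying one. Without it the log2 difference was -0.0042 at the Esrrb contact and -0.0386 at the Sall4 contact.

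The Phc1 bait (chromosome 6, 122339268 to 122340303) met a fragment 2.46 kb from Cav1, the caveolin gene, 105.0 Mb away (17303606 to 17303871). It had 56, 15, 7 and 11 and then 11, 16, 9 and 11 reads, with library 1 of the control-named table high (log2 difference -0.73, SE 0.660, edgeR adjusted p = 0.457). The Nanog bait (chromosome 6, 122707354 to 122707701) met a fragment 40.6 kb from Vmn2r26, a vomeronasal receptor gene, 1.40 Mb away (124106386 to 124107343), with 8, 7, 14 and 37 and then 7, 7, 10 and 12 reads. The Dppa5a bait (chromosome 9, 78368132 to 78368522) met a fragment 9.66 kb from Dock6, a guanine nucleotide exchange factor gene, 56.5 Mb away (21862296 to 21863526), with 8, 3, 6 and 24 and then 6, 11, 7 and 5 reads. In both, library 4 of the control-named table was the highest. Without that library the log2 difference of the Nanog contact went from -0.87 to 0.03 and that of the Dppa5a contact from -0.49 to 0.54. Without library 1 of the control-named table that of the Phc1 contact went from -0.73 to 0.18, and without library 1 of the IFNγ-named table that of Klf4 from 0.73 to -0.10.

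**Figure D5:**
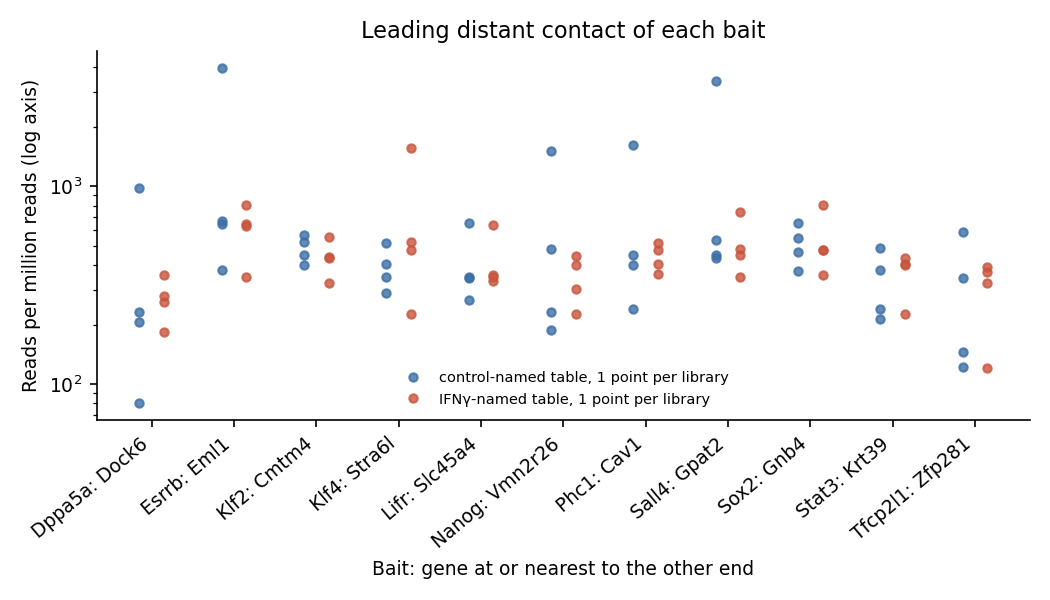
RPM (log axis) of the leading distant contact of each bait, named by bait and by the gene at or nearest to the other end, with 1 point per library. A single IFNγ-named library is high in its table at Klf4 (36 reads) and at Lifr (641 RPM), and low at Stat3 (226 RPM). Esrrb, Sall4, Phc1, Nanog and Dppa5a each have 1 control-named library high above the others.

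The 10 distant start sites that led by median RPM included 3 of Esrrb. These were Clmn, a calponin-domain membrane protein, at 18.4 Mb, Galc, a lysosomal galactosylceramidase, at 11.8 Mb, and Adcy3, an adenylate cyclase, at 82.3 Mb toward lower coordinates. Clmn had 22, 21, 9 and 7 reads in the control-named and 6, 13, 16 and 25 in the IFNγ-named libraries, and Galc 19, 26, 12 and 12 and then 9, 12, 9 and 22. Both were read in every library at these levels, and the tables overlapped. Adcy3 had 14, 45, 10 and 4 and then 6, 7, 5 and 8, with library 2 of the control-named table high.

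Phc1 had Tmem178b, a transmembrane protein gene, with 138 reads of which 59 came from control-named library 4, and Crebl2, a leucine zipper protein gene, with 74 reads of which 28 came from control-named library 1. The fragment shared by the start sites of Alg5, an enzyme of protein glycosylation, and Exosc8, a subunit of the RNA exosome, was read from Sox2 at 20.1 Mb, and control-named library 3 held 34 of its 77 reads. These neighbouring genes cannot be told apart at this fragment. Slc45a4 from Lifr (above), Otud3, a deubiquitinase, from Klf4 (66 reads) and Scamp2, a membrane trafficking protein, from Dppa5a (65 reads) completed the 10.

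Few start sites were reached at all, and the gene lists followed that. Of 11540 protein-coding genes with a start site 1 Mb or more from a bait on its chromosome, 130 (1.13%) had a read within 1 kb and 87 (0.754%) had 10 or more. Of the polycomb list 1 of 16 such genes had a read. This was Cbx2, a subunit of the same type of complex as Phc1, met from Stat3 at 18.1 Mb with 60 reads, 36 of them from control-named library 2. None of 6 pluripotency genes, 16 genes of interferon and STAT signalling, 8 of intestinal stem cells, 19 of differentiated epithelium, 10 of other cell types and 6 housekeeping genes had a read. With 1.13% of all genes reached, 0 of lists this short is near what that share gives.

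Pair by pair, no distant contact passed the test between the tables. Over all 14 baits, 3673 fragment pairs with 10 or more reads entered edgeR's quasi-likelihood test, and 0 (percent called: 0%) passed an adjusted p of 0.05. At an unadjusted p under 0.05 there were 608 (16.6%). Of the 2247 distant pairs 1068 passed the filter, 0 passed the adjusted threshold, and 165 (15.4%) had an unadjusted p under 0.05, close to the share of all pairs. Of these 165, 79 were higher in the IFNγ-named table and 86 lower. DESeq2 gave 0 adjusted and 88 unadjusted. The median log2 difference was -0.08 for the distant pairs and -0.09 for all pairs tested. Without the filter on reads edgeR called 39 of the 2247 distant pairs (1.74%), against 168 of 30435 pairs of all baits (0.552%). These shares cannot be compared directly, because 1068 of the distant pairs and 3673 of all pairs had 10 or more reads. All 39 had 10 or more reads, 14 were higher and 25 lower in the IFNγ-named table, and each held at least 80.95% of its reads in 1 library.

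Summing reads in 1 Mb windows gave the same count. Of 761 windows of the 14 baits, 0 (percent called: 0%) passed and 127 (16.7%) had an unadjusted p under 0.05. For the windows of the 11 baits 0 passed and 101 of 651 (15.5%), with 0 and 60 in DESeq2. Without the filter on reads, 38 of 1097 windows of the 11 baits (3.46%) were called, against 56 of 1300 of all baits (4.31%). All 38 had 10 or more reads, 13 were higher and 25 lower in the IFNγ-named table. In 34 of them 1 library held over 50% of the reads, and the lowest top-library share was 39.7%.

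The 3 distant pairs with the smallest p were led by 1 library each. Sall4 and an intergenic fragment 60.7 Mb toward lower coordinates had 2, 17, 1 and 1 reads in the control-named libraries. The fragment lay 772.3 kb from Kcna4, a potassium channel gene. The pair was not listed in the IFNγ-named table, so its reads there were set to 0. These zeros cannot be told from a pair left out. Taken as counts, with a floor of 3 reads over the 4 libraries, they are at least 5.92-fold lower than in the control-named table. Library 2 of the control-named table held 80.95% of the reads (edgeR unadjusted p = 0.0101, adjusted p = 0.284). Tfcp2l1 and an intron of Nckap5, 8.02 Mb away, had 9, 2, 1 and 2 and then 0, 0, 1 and 0 reads (edgeR log2 difference -3.14, SE 1.03, adjusted p = 0.284). Esrrb and an intron of Syt16, 12.2 Mb toward lower coordinates, had 1, 1, 1 and 1 and then 1, 80, 2 and 1 reads (edgeR log2 difference 4.23, SE 1.45, adjusted p = 0.284). The groups overlap at the last 2 of these, and 1 library of the IFNγ-named table makes up 90.9% of the Esrrb reads.

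The authors' own score was computed on the 4 libraries of a table together. Distant pairs with a score of 5 or more are counted here as called. There were 513 among the 1825 distant pairs of the control-named list and 458 among the 1575 of the other. Over all pairs of each table, at any distance and with other chromosomes, the called shares were 6.86% and 7.53%. These are not the shares of the distant pairs. Both lists held 253, 49.3% of the control-named and 55.2% of the IFNγ-named calls. Esrrb had 80 and 70 calls, Phc1 67 and 71, and Sall4 66 and 59, and Stat3 19 and 17. Of the 718 distant pairs called in either table, 382 (53.2%) had 10 or more reads with over 50% of them in 1 library. The score per pair of the Esrrb and Syt16 contact was 0 (control-named) and 113.94 (IFNγ-named), where 1 library held the reads. A score carries no replicate error, so a call in 1 table only is no measured difference.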

How the data were processed

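Bowtie2 and the build mm10 are named in the submitters' processing notes. Not given in the sources used here: versions, removal of duplicates and settings of the contact caller. Each of the 2 deposited tables holds counts of reads per fragment pair for 4 libraries each, as raw counts per the file headers, and a score per pair for the table as a whole, as deposited by the authors in the layout of the CHiCAGO caller. All 30386 listed fragments on assembled chromosomes matched DpnII fragments of GRCm38 exactly. Listed fragments span at least 100 bases from start to end, so available fragments were counted from that length up, without unknown bases (N). Available sequence in Mb was summed over fragments of any length, less unknown bases. Genes are from GENCODE vM21. A pair listed in 1 table was given 0 in the other, which cannot be told from a pair left out of that table.

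Pairs, 1 Mb windows and bait sums were tested with edgeR 4.0.16 (quasi-likelihood, TMM, 10 or more reads, adjusted p of 0.05) in R 4.3.3, with DESeq2 1.42.0 as an alternative, where 92 adjusted p-values of distant pairs were NA. edgeR was tested on simulated data that gave all features the same spread, unlike the uneven pairs here. No statement here rests on that test. Library measures were compared by two-sided exact permutation in scipy 1.17.1 (Python 3.11.15). With 4 against 4 libraries it cannot go below 0.0286. Libraries held 23037 to 37290 reads, so single pairs have wide counting error. The slope used 0.5 added reads. Named were all 11 baits, the strongest distant pair of each by median reads scaled to depth, the 10 genes with the highest median RPM at a TSS, the 3 pairs with the smallest p, and listed genes with 10 or more reads. Members and gene lists were chosen with earlier results of these data known. Alternatives covered filters, scaling, distance, windows, gene definitions, pairs in both tables, fragments detected and each library left out. The gene density comparison and the removal of uneven pairs were added after seeing the data.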

Additional observations from a re-analysis of the deposited data

Results flagged for a closer look

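Of 90 groups of 4 libraries examined, 9 held 1 library that stood off from the rest, and chance flags about 1 in 20 groups, or 4.50. In the control-named table, library 4 held 44.9% of the Phc1 reads beyond 1 Mb, against 41.3% to 41.6% in the others, and 16.3% of the distant reads at 2 to 5 Mb, against 11.4% to 11.8%. Its genes per Mb around the other ends of Nanog were 8.23, against 8.64 to 8.65. The same library held 978 RPM at the leading contact of Dppa5a (others 80.5 to 232), 3992 at that of Esrrb (379 to 667) and 3422 at that of Sall4 (435 to 536). Library 1 of the control-named table held 1623 at the leading contact of Phc1 (241 to 448). In the IFNγ-named table, library 3 held 641 at the Lifr contact (332 to 356), and library 2 held 226 at the Stat3 contact (401 to 434).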

How the results depend on the processing

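Of the 125 recomputed values of the main comparisons, 110 kept their direction and side of the threshold or, for counts, stayed near the main count. The difference in decay slope was -5.41e-04, and turned to 0.00838 from 2 Mb up, to 5.56e-04 over pairs in both tables and to 0.00475 without uneven pairs, and ranged from -0.0231 to 0.0217 with single libraries left out. The difference in the ratio to other chromosomes turned to -0.507 over pairs in both tables. It reached 1.34 (unadjusted exact permutation p = 0.0286) with fragments detected. The TSS share turned to -0.953 percentage points without uneven pairs. Without the filter on reads, edgeR called 39 distant pairs and 38 windows. The baits below the available gene density in all 8 libraries went from 1 to 2 with fragments detected and to 2 from 2 Mb up. The baits above it in all 8 libraries went from 6 to 4 with the same distance classes. They were 5 with genes within 250 kb and from 2 Mb up, and 8 with fragments detected and without uneven pairs. The causes of these changes were not tested. Among leading contacts, the log2 difference turned at Lifr to 0.0225 with 20 or more reads and 0.0624 with library totals, and at Sox2 to 0.0515 with library totals. With single libraries left out it ran from -0.82 to 0.54 at Dppa5a, -0.10 to 1.02 at Klf4, -0.25 to 0.25 at Lifr, -1.16 to 0.0337 at Nanog, -1.01 to 0.18 at Phc1, -0.29 to 0.0521 at Sox2, -0.10 to 0.26 at Stat3 and -0.40 to 0.46 at Tfcp2l1, with no adjusted p under 0.05. No paired analysis was possible because the count columns carry no mouse or passage. With 4 libraries and a median of 5 reads per distant pair, a difference at a single pair may not be detectable.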
